A study of Mus musculus with 4 samples.

Results

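The genes described here encode the protein machinery of oxidative phosphorylation, and their transcripts were compared between kidneys of mice that lack Usp2 and kidneys of wild-type littermates. Members were taken by gene symbol alone: symbols that begin with Nduf, Uqcr or Atp5, the Cox genes of the families 4 to 8, the 4 Sdh genes, Cyc1 and Cycs. This gave 91 genes of the 19934 with a value of their own on the array. They comprise 34 subunits of complex I, 7 assembly factors of complex I (the Ndufaf genes), 4 subunits of complex II, 9 of complex III together with cytochrome c, 17 of complex IV and 17 of complex V. The remaining 2, Ndufa4l2 and Cox7a2l, are relatives of complex IV subunits and were kept apart. Ndufa4, named as a complex I gene, is counted in complex IV, where its protein is now placed.

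All mice were C57BL6/N males of 12 weeks, taken at Zeitgeber time 12, the end of a light phase of 12 h. The groups were WT and Usp2-KO, a knockout of the gene for a ubiquitin-specific protease, and the labels name no other allele or treatment and do not say which exons were removed or in which cells. Whole kidney RNA came from 6 pairs of littermates, and each genotype had 2 pools with 3 mice each. The design text says that littermates were kept together between pools, and pools of the same number are taken here to be those pairs, which no label states. Over all genes, deviations of same-numbered pools from their genotype means correlated at -0.121, so a difference called a littermate difference below is that of same-numbered pools. Each pool was measured on 1 Affymetrix whole-transcript array, and values are log2 expression. A difference of 1 on this scale is a 2-fold difference in signal. In whole kidney, fewer cells of a type and less RNA per cell cannot be told apart.

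Oxidative phosphorylation takes place in the inner mitochondrial membrane. Complex I passes electrons from NADH, and complex II from succinate, to ubiquinone. Complex III hands them on to cytochrome c, and complex IV passes them to oxygen. Complexes I, III and IV pump protons, and complex V, the ATP synthase, uses the gradient to make ATP. Tubule cells of the kidney, those of the proximal tubule and thick ascending limb above all, are packed with mitochondria because they pump sodium all day. Most subunits are encoded in the nucleus, and the transcription factors NRF1, GABPA, YY1, the estrogen-related receptors (ERR) and CREB are known to bind promoters of such genes.

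Promoter sequence is a feature that the choice of members did not use. Windows from 250 bases before to 50 after the start were found for 74 of the 91 members and for 15560 of all genes on the array (RefSeq, GRCm38.p6). They were searched on both strands for 1 plain word per factor, none of which contains another. The NRF1 word, its palindromic consensus site, was in windows of 7 members (9.46%) and of 1.62% of all genes. The GABPA word CCGGAAG was in 18 members (24.3%) and 13.6% of all genes. AAGATGGCG, for YY1, was in 7 members (9.46%) against 2.29%, and 5 of these were among the 31 complex I subunits with a window. TGACGTCA, for CREB, was in 5 members (6.76%) against 2.72%, and TCAAGGTCA, for ERR, in 2 members (2.7%) against 0.347%. All 5 words were thus in a larger share of member windows than of all windows, as a description without a test. Windows of members were also richer in CpG, with a median of 20 against 16, so the shares are not of like base composition.

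The stretches shown next lie before the start of 4 members, chosen as examples. They are Sdhd, the member with the largest difference, Uqcrfs1, the complex III subunit with the largest positive one, Cox6a1, a complex IV subunit lower in both pairs of pools, and Atp5g3, of the c ring of the ATP synthase. Each runs 5′ to 3′ on the strand of its gene and ends at the base before the start. Capitals mark a match to one of the words, which all 4 of these stretches hold and the stretches of most members do not.
Sdhd (chr9:50603850-50603900, minus strand): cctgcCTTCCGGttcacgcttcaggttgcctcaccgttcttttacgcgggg
Uqcrfs1 (chr13:30545317-30545566, minus strand): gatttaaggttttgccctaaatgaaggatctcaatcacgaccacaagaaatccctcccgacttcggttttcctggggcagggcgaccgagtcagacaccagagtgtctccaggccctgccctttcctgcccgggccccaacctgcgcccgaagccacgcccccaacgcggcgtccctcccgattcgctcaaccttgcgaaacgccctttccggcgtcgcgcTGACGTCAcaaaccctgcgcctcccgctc
Cox6a1 (chr5:115348959-115349208, minus strand): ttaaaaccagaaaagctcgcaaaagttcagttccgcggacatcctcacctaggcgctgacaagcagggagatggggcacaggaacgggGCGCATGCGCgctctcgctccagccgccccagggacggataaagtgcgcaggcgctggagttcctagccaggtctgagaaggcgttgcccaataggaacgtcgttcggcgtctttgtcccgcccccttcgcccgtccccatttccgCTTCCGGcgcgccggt
Atp5g3 (chr2:73911327-73911576, minus strand): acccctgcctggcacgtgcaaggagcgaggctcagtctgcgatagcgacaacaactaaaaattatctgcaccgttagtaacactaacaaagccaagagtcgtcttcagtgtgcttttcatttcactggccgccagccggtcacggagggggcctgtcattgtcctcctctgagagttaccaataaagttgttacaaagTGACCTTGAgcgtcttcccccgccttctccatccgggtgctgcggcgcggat
The Sdhd stretch is only 51 bases long, because the neighbouring gene Timm8b begins there on the other strand, and it holds the GABPA word. Uqcrfs1 holds the CREB word, Cox6a1 those of NRF1 and GABPA, and Atp5g3 that of ERR.

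Usp2 checked the labels. Its log2 value was 11.63 and 11.71 in the WT pools and 7.65 and 7.60 in the Usp2-KO pools, a difference of -4.04 (SE 0.07, adjusted p = 2.8e-08 by limma). Array medians lay between 7.44 and 7.46. Kidney markers were high, as the tissue label says: the 9 measured proximal tubule markers averaged between 13.14 and 13.16 in the 4 pools, against an upper quartile of all rows between 9.03 and 9.08. Nothing in the labels says whether pools were processed on different days. WT pool 1 stood apart for the genes described here: it held the lowest of the 4 values for 48 of the 91 members (52.7%), against 25.2% of all genes. WT pool 2 held the lowest value for 12, Usp2-KO pool 1 for 16 and Usp2-KO pool 2 for 15.

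**Figure D1:**
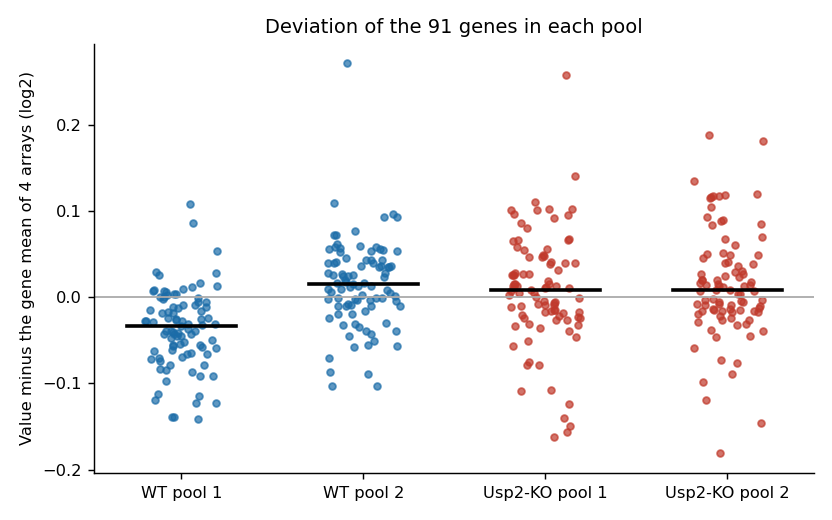
Each point is 1 of the 91 genes: its log2 value in a pool minus its own mean over the 4 arrays, with bars at the median of each pool. The cloud of WT pool 1 lies below 0 in most genes, and the other 3 pools lie near or just above it.

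Transcripts of oxidative phosphorylation differed little between the genotypes. No member passed an adjusted p under 0.05 in the limma fit over all genes (0 of 91, smallest adjusted p = 0.402), where 0.00502% of all genes passed, namely Usp2. With littermate pools as a block 0.768% of all genes passed and again 0 of 91 members. At an unadjusted p under 0.05 there were 2 members (2.2%), Sdhd lower and Ndufaf4 higher, against 9.11% of all genes. The members' share was below that of all genes, and closer to the 3.64% found among the 2826 genes with a mean log2 value of at least 10, a level that 71.4% of members reach. Sdhd was the 1 member that differed by more than 0.2, a size passed by 7.69% of all genes.

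The intervals give the range of differences that the values allow for each member, not the size needed to pass the adjusted threshold. For 83 of the 91 members the 95% confidence interval lay within -0.3 and 0.3, and over all members the outermost bounds were -0.50, for Sdhd, and 0.38, for Ndufb2. The median standard error was 0.07. Groups did not overlap for 31 members (34.1%, background 38.9%), 20 (22% of the 91) with both Usp2-KO pools above both WT pools (background 19.8%) and 11 (12.1% of the 91) with both below (background 19.1%). Among genes with a mean of at least 10 these shares were 26.2% and 10.5%. In a design of 2 against 2, an exact two-sided permutation test of a single gene cannot give a p under 0.333.

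A small lean to positive values was seen, near that of other highly expressed genes, and it was smaller without WT pool 1. Of the 91 members 55 (60.4%) had a positive difference, against 47.4% of all genes and 57.6% of those with a mean of at least 10. The median was 0.03, beside -0.006 for all genes and 0.016 for the highly expressed ones. Among the 65 members with a mean of at least 10, 58.5% were positive and the median was 0.02, close to all genes at that level. The median of the 91 members was 0.004 without WT pool 1 and 0.011 when quantile normalization was repeated, and 0.048 without WT pool 2. The median distance between the 2 WT pools was 0.055 in size and that between the 2 Usp2-KO pools 0.054, and, also between single pools, the genotypes differed by a median size of 0.062 in pair 1 and 0.046 in pair 2. The difference of the genotype means had a median size of 0.043, which averages over pools and so is not on the same footing.

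**Figure D2:**
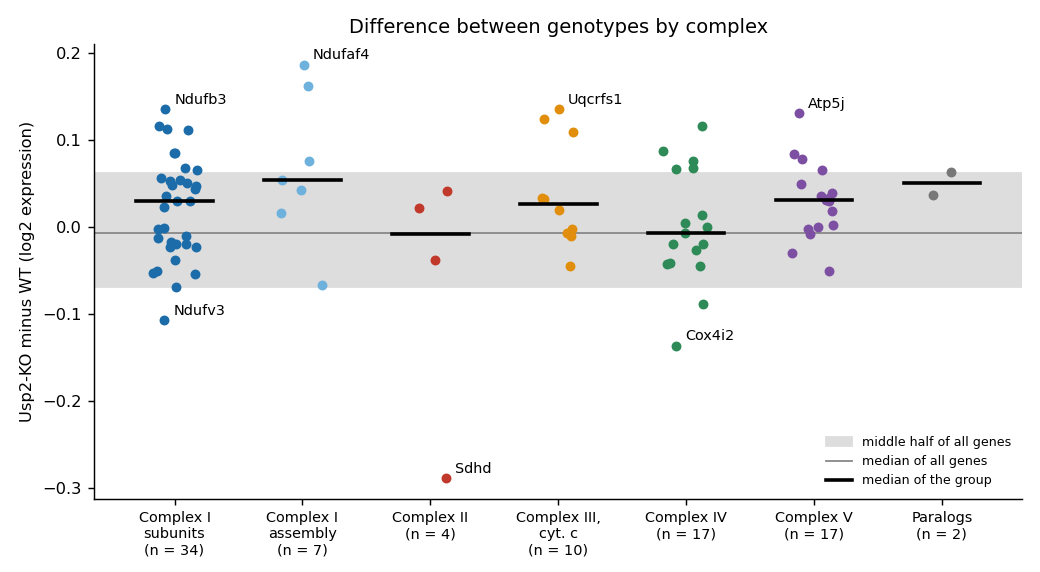
Points are the 91 genes placed by complex, with the difference of Usp2-KO minus WT in log2 units on the vertical axis, black bars at the group medians, a grey band over the interquartile range of all genes and a grey line at their median. Group medians lie between -0.008 for complex II and 0.055 for the complex I assembly factors, and Sdhd at -0.29 lies far below the rest.

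Complex I, the NADH dehydrogenase, had a median difference of 0.03 over its 34 measured subunits, with 19 positive and 15 negative values between -0.11 and 0.14. None was at an unadjusted p under 0.05. Of the 6 core subunits, most carry the flavin or iron-sulfur centres. Ndufs1, an iron-sulfur subunit, stood at 10.44 and 10.35 in the WT pools and 10.56 and 10.47 in the Usp2-KO pools. Its littermate differences were alike, 0.12 in each pair (0.12, SE 0.08, adjusted p = 0.689 by limma), and the groups did not overlap. Ndufv1, which holds the flavin that takes electrons from NADH, differed by 0.06 and its partner Ndufv2 by 0.05. Ndufs3, Ndufs7 and Ndufs8, which lie toward the quinone site, differed by -0.02, -0.04 and -0.05. Single members of the core thus lay on both sides of 0.

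The 28 accessory subunits, which surround and stabilise the core, had a median of 0.03. Ndufb3, of the membrane arm, had the largest positive value, 0.14 (SE 0.08, adjusted p = 0.64 by limma). It read 8.12 and 8.14 in the WT pools and 8.33 and 8.19 in the Usp2-KO pools, so that the step was 0.22 in the pool 1 littermates and 0.05 in those of pool 2. Without Usp2-KO pool 1 its difference was 0.06 and without Usp2-KO pool 2 it was 0.21. Ndufv3, a small subunit by the flavin site, had the largest negative value with the same sign in both pairs, -0.11 (SE 0.07, adjusted p = 0.703 by limma). Its values were 10.20 and 10.14 in WT and 10.04 and 10.08 in Usp2-KO kidney, without overlap. Ndufab1, the mitochondrial acyl carrier protein that also sits in complex I, differed by 0.11, and a second row for the gene gave the same value.

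Some accessory subunits moved in opposite ways in the 2 pairs. Ndufb2 stood at 7.38 and 7.43 in WT and at 7.72 and 7.31 in the Usp2-KO pools, with littermate differences of 0.34 and -0.11. Its fitted difference of 0.11 was -0.09 without Usp2-KO pool 1. For Ndufs4, whose loss in people causes a severe complex I deficiency, the pairs gave -0.08 and 0.175, and its Usp2-KO pools were the lowest and the highest of the 4 values, 11.54 and 11.87.

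The 7 Ndufaf genes encode proteins that build complex I and leave it again. They had a median of 0.055, and 6 of the 7 were positive. Ndufaf4 had close values within each genotype, 8.08 and 8.09 in the WT pools against 8.28 and 8.26 in the Usp2-KO pools. The littermate pools differed by 0.20 and 0.175, giving 0.19 (SE 0.07, 95% confidence interval 0.03 to 0.34), or 1.14-fold, at an unadjusted p of 0.025 and an adjusted p of 0.466 by limma. It kept a value between 0.16 and 0.20 under every alternative, while its unadjusted p was between 0.0516 and 0.0926 when a pool was left out. Ndufaf1 was next at 0.16 (unadjusted p = 0.062), with 8.815 and 8.931 in WT and 9.001 and 9.071 in Usp2-KO kidney. It was 0.10 without WT pool 1. The other five lay between -0.07 (Ndufaf2) and 0.08 (Ndufaf7), and without Usp2-KO pool 2 the median of the 7 was 0.118.

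Complex II, succinate dehydrogenase, links the citrate cycle to the electron chain, and of its 4 genes only Sdhd differed by more than 0.05 in size. Sdha, the flavin subunit that oxidises succinate, differed by 0.04 and Sdhb, the iron-sulfur subunit, by -0.04. Of the pair of membrane anchors, Sdhc differed by 0.02. Sdhd, its partner, stood at 10.94 and 11.19 in the WT pools and at 10.81 and 10.74 in the Usp2-KO pools. Both Usp2-KO pools were below both WT pools, and the 2 WT pools were further apart than for most members (SD 0.18). The difference was -0.29 (SE 0.09, 95% confidence interval -0.50 to -0.08), 1.22-fold lower, with an unadjusted p of 0.0134 and an adjusted p of 0.402 by limma. With the littermate block the adjusted p was 0.147.

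WT pool 2 carried much of the Sdhd value. The littermate pools differed by -0.12 in pool 1 and -0.45 in pool 2. Without WT pool 2 the difference was -0.16 (unadjusted p = 0.14), without WT pool 1 it was -0.42, and without Usp2-KO pool 2 it was -0.25 (unadjusted p = 0.0724). Sdhd also has a place near Usp2: both are on chromosome 9, and Sdhd is the 90th measured gene after it. Of the 200 genes within 100 places of Usp2, 46 (23%) had an unadjusted p under 0.05, against 8.9% of genes on other chromosomes. The part of this position in the Sdhd value was not tested. Timm8b, the gene that faces Sdhd across the 51 bases shown above and encodes a chaperone of the intermembrane space, was not lower: it read 10.64 and 10.71 in WT and 10.77 and 10.85 in Usp2-KO kidney (0.13, SE 0.07, adjusted p = 0.638 by limma). Atp5l, a complex V gene at place 31 from Usp2, differed by 0.03. The 4 members further along chromosome 9, Cox5a, Cox7a2, Ndufaf3 and Uqcrc1, differed by between -0.04 and 0.09.

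Complex III passes electrons from ubiquinol to cytochrome c. Its 9 subunits and cytochrome c had a median of 0.026, which was 0 without WT pool 1. All 10 were positive in the pool 1 littermates and 5 of 10 in those of pool 2. Uqcrfs1, the Rieske iron-sulfur protein that takes the first electron, had the largest positive value with the same sign in both pairs. It stood at 9.23 and 9.19 in WT and at 9.35 and 9.35 in Usp2-KO kidney (0.14, SE 0.07, adjusted p = 0.609 by limma), without overlap, and the littermate differences were 0.12 and 0.16. Cyc1, cytochrome c1, differed by 0.02, and the core proteins Uqcrc1 and Uqcrc2 by -0.04 and 0.03.

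Of the small subunits of complex III, Uqcrb differed by 0.12, and its 3 rows on the array gave values between 0.12 and 0.15. Uqcr11 showed the widest split between pairs, 0.19 and -0.21, and its difference was -0.01. Cycs, the mobile carrier between complexes III and IV, stood at 12.26 and 12.29 in WT and at 12.31 and 12.47 in Usp2-KO kidney (0.11, SE 0.08, adjusted p = 0.723 by limma). Its Usp2-KO pools were above the WT pools, but the step was 0.05 in the first pair and 0.17 in the second, and without Usp2-KO pool 2 it was 0.03. The 3 rows of Cycs gave differences between 0.05 and 0.19. The rows of Cycs thus spread over 0.14, beside 0.023 for those of Uqcrb.

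**Figure D3:**
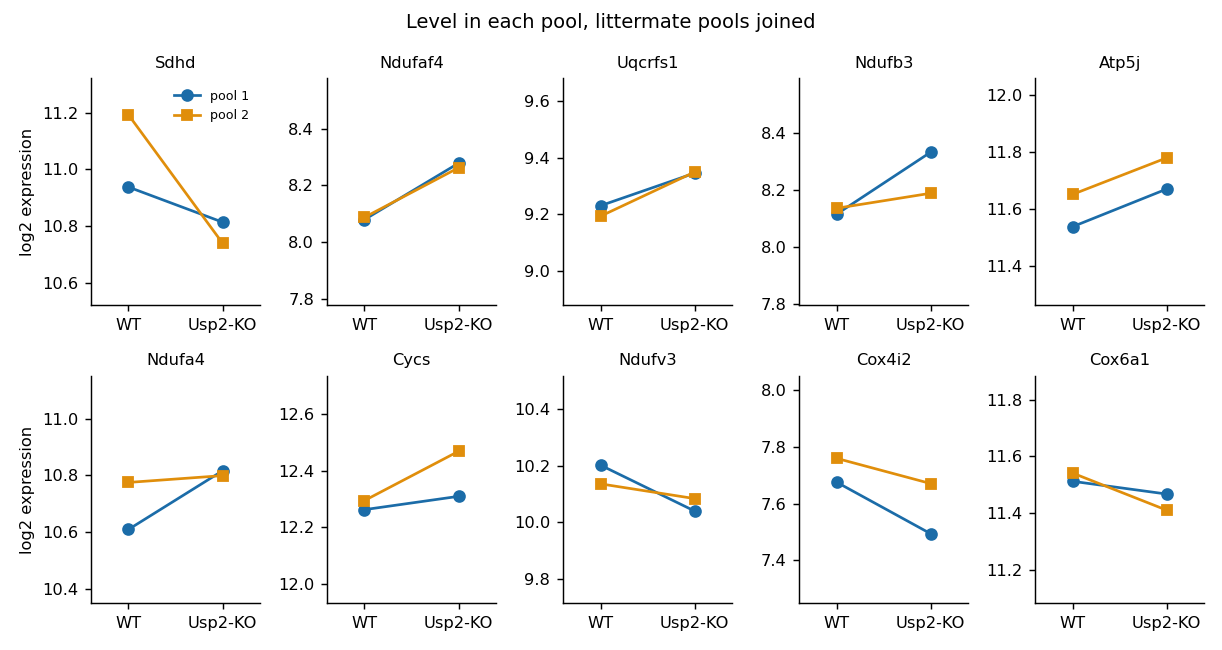
Log2 expression of 10 members in each pool, with lines joining littermate pools (pool 1 circles, pool 2 squares) and every panel spanning 0.8 log2 units. The 2 lines of Ndufaf4 and of Uqcrfs1 lie nearly on each other, those of Atp5j run in parallel, and those of Sdhd, Cycs and Ndufb3 differ in slope.

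Complex IV, cytochrome c oxidase, had a median of -0.006 over 17 genes, with 8 positive, 9 negative and none at an unadjusted p under 0.05. The median was -0.034 without WT pool 1 and 0.016 without Usp2-KO pool 1. Its nuclear subunits include pairs of isoforms of which one is found in most tissues and the other in heart and muscle, lung or testis. Of the 10 general subunits 6 were positive, with a median of 0.01. Cox7c, another general subunit, is not among them, because its rows also carry a second symbol. In each of those rows both Usp2-KO pools were above both WT pools, for example 13.049 and 13.098 in WT against 13.125 and 13.138. Ndufa4 had the largest value, 0.12 (SE 0.08, adjusted p = 0.71 by limma), with 10.61 and 10.77 in WT and 10.82 and 10.80 in Usp2-KO kidney. It was 0.03 without WT pool 1. Cox7a2 differed by 0.09, and Cox6a1 by -0.09, with 11.51 and 11.54 in WT and 11.47 and 11.41 in Usp2-KO kidney. Cox4i1 differed by -0.04, Cox8a by -0.03 and Cox6b1 by 0.005.

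Among the 7 tissue isoforms, 6 were negative in the pool 1 littermates and 2 in those of pool 2. Cox4i2, the lung isoform of subunit 4 that is known to respond to low oxygen, had the largest negative value of complex IV. It stood at 7.68 and 7.76 in WT and at 7.49 and 7.67 in Usp2-KO kidney (-0.14, SE 0.08, adjusted p = 0.666 by limma), and was at -0.05 without Usp2-KO pool 1. The muscle isoform Cox8b stood at 7.22 and 7.28 in WT and at 7.07 and 7.35 in Usp2-KO kidney, and Cox6a2 at 8.07 and 8.13 against 7.96 and 8.19. Their Usp2-KO pools were the lowest and the highest of the 4, and the differences were -0.04 and -0.02. Cox7a1, the third muscle isoform, differed by 0.07. The testis isoforms Cox6b2, Cox7b2 and Cox8c differed by between -0.04 and 0.00.

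Cox8b and Cox7a1 are also known from brown fat, so fat markers were read beside them. The 12 measured fat markers averaged 7.50 and 7.55 in the WT pools, 7.25 in Usp2-KO pool 1 and 7.53 in Usp2-KO pool 2. Of these markers 8 were negative, 3 of the 12 passed with the littermate block alone (Adipoq, Retn and Cidec, all lower), and Adipoq, the fat hormone adiponectin, stood at 7.10, 7.08, 6.28 and 6.95 in the same order of pools. Ucp1, the defining gene of brown fat, was not lowest in Usp2-KO pool 1, with 6.03 and 6.34 in WT and 6.22 and 6.56 in Usp2-KO kidney. Of 12 muscle markers 10 were negative, 2 at an unadjusted p under 0.05 (background 3.88%), with averages between 6.63 and 6.74. Over all genes 47.4% were positive. The 8 germ cell markers averaged between 5.77 and 5.84. The part of fat or muscle RNA in the isoform values was not tested. Of the 2 relatives of complex IV subunits, Cox7a2l, which ties complexes III and IV together, differed by 0.06, with a second row at -0.09. Ndufa4l2, which is known to be induced by low oxygen, differed by 0.04, from 0.18 and -0.11 in the pairs.

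Complex V, the ATP synthase, had a median of 0.032 over 17 genes, of which 12 were positive and none was at an unadjusted p under 0.05. The median was 0.006 without WT pool 1. In the F1 head, which makes ATP, the catalytic subunit Atp5b stood at 13.76 and 13.75 in WT and at 13.74 and 13.74 in Usp2-KO kidney, a difference of -0.008 with a 95% confidence interval of -0.16 to 0.15. Atp5a1 differed by 0.04, and Atp5d, with the largest negative value of the same sign in both pairs, by -0.03. The c ring, which turns as protons pass, is encoded by 3 genes for the same mature protein, and these differed by 0.003 (Atp5g1), -0.05 (Atp5g2) and 0.02 (Atp5g3). None of the 3 had the same sign in both pairs.

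The stalk that holds head and membrane part together had the largest positive member, Atp5j, or coupling factor 6. It stood at 11.54 and 11.65 in WT and at 11.67 and 11.78 in Usp2-KO kidney (0.13, SE 0.08, adjusted p = 0.656 by limma). The littermate pools differed by 0.13 in each pair, and the groups did not overlap. It was 0.07 without WT pool 1 and 0.19 without WT pool 2. Atp5pb, subunit b, differed by 0.08, Atp5h, subunit d, by 0.03 and Atp5o by -0.002. All 5 membrane subunits (Atp5j2, Atp5k, Atp5l, Atp5md and Atp5mpl) were positive, by 0.03 to 0.08. In the pool 1 littermates all 5 were positive, and in those of pool 2 only 2. The 6 rows of Atp5l, read on the same arrays, gave values between 0.03 and 0.08. Without Usp2-KO pool 1 the Atp5l difference was 0.0.

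Littermate pairs gave different pictures of the same genes. In the pool 1 littermates 67 of the 91 members were positive, with a median of 0.049, and in the pool 2 littermates 45, with a median of -0.001. Both differences were positive for 36 of the 91 members (background 26.1%) and both negative for 15 (background 25.3%). Among the 2826 genes with a mean log2 value of at least 10, both were positive for 968 and both negative for 421. For the 65 members at that level these numbers were 27 and 13. By complex the medians in pairs 1 and 2 were 0.028 and -0.018 for complex I, 0.057 and 0 for complex III, 0.056 and -0.014 for complex V, and -0.003 and 0.024 for complex IV. The correlation of the 2 differences across the 91 genes was 0.093, and -0.008 without Sdhd, beside 0.157 over all genes. Genes of one array share its RNA and normalization, so these correlations are only descriptions.

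**Figure D4:**
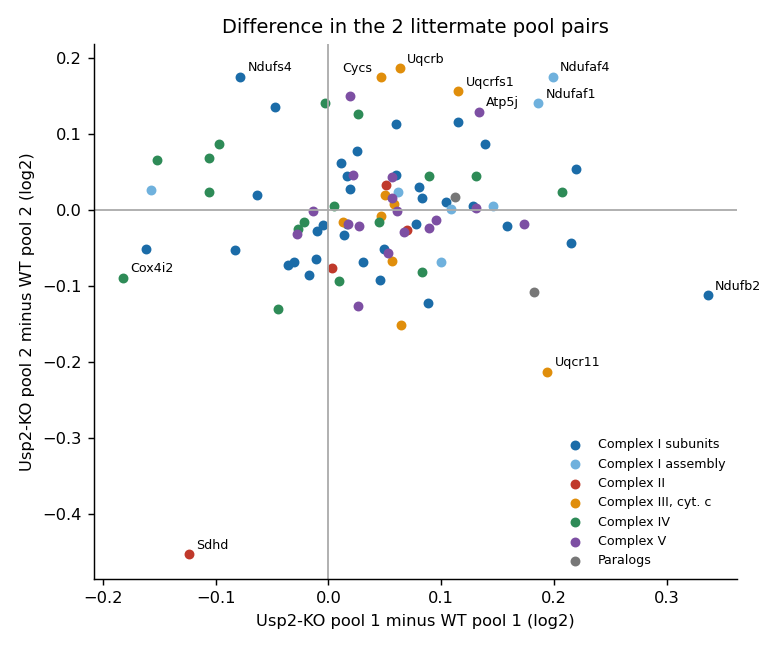
Each point is 1 of the 91 genes, with the difference in the pool 1 littermates on the horizontal axis and that in the pool 2 littermates on the vertical axis, both Usp2-KO minus WT in log2 units and coloured by complex. The cloud is shifted to the right of 0 but not upward, and Sdhd lies alone at -0.12 and -0.45.

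The rest of mitochondrial energy metabolism was read from lists of related genes. Of 13 mitochondrially encoded subunits listed, 2 were measured, and they were close to 0: ND3 of complex I differed by 0.03 and COX2, the subunit of complex IV that receives electrons from cytochrome c, by 0.006. Enzymes of the citrate cycle and of pyruvate entry lay higher. Of 18 measured genes 14 were positive, with a median of 0.101, and 6 were at an unadjusted p under 0.05, all of them higher (background 5.22%). None passed the adjusted threshold without a block. Dld, the shared lipoamide dehydrogenase of 3 mitochondrial enzyme complexes, stood at 9.25 and 9.18 in WT and at 9.54 and 9.65 in Usp2-KO kidney. It differed by 0.38 (SE 0.07, adjusted p = 0.286 by limma), and passed with the littermate block (adjusted p = 0.02) but not with the crossed pairing (adjusted p = 0.285). The block fit leans on a prior of 90.6 degrees of freedom, against 6.87 without the block. Suclg2, of succinyl-CoA synthase, differed by 0.27, and Dlat, of the pyruvate dehydrogenase complex, by 0.24. The list's median was between 0.074 and 0.116 when a pool was left out.

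Gene length differed between these sets. Over all genes the difference was larger in longer genes (Spearman rho 0.19 over 19849 genes; genes of an array do not count as replicates), and the median length was 17.7 kb for all genes, 24 kb for the citrate cycle list and 7.3 kb for the members. Among the members themselves the rho was 0.079. The part of length in the distance between the lists was not tested, and the difference between the lists itself was not tested either.

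Other lists had medians between 0.026 and 0.052. Over all genes 47.4% were positive, and 9.11% were at an unadjusted p under 0.05 (5.22% higher). Genes of quinone synthesis and other electron entry had 11 of 16 positive and a median of 0.042, with 2 at an unadjusted p under 0.05. Etfa, which feeds electrons from fatty acid oxidation into ubiquinone, led them with 9.66 and 9.67 in WT and 10.03 and 9.97 in Usp2-KO kidney (0.33, SE 0.07, adjusted p = 0.286 by limma). Coq5 and Coq3, of ubiquinone synthesis, differed by 0.17 and 0.16. Assembly factors of complexes I, II and V had 12 of 15 positive and a median of 0.052, with 1 at that threshold. Timm21, which escorts early subunits into complexes I and IV, differed by 0.34 (0.21 once Usp2-KO pool 1 was dropped), Tmem126b by 0.14 and Sdhaf4 by -0.13. Those of complexes IV and III had 19 of 24 positive and a median of 0.026, with 1 at that threshold. These include Hccs, which attaches heme to cytochrome c, at 0.23, Cox11 at 0.13 and Coa3 at -0.11.

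Regulators of mitochondrial biogenesis had 13 of 21 positive and a median of 0.052, with 2 higher at an unadjusted p under 0.05 (background 5.22%). Ssbp1, which binds mitochondrial DNA, differed by 0.32 from littermate values of 0.04 and 0.59, and by 0.16 without WT pool 2 and 0.19 without Usp2-KO pool 2. Tfb2m, a mitochondrial transcription factor, differed by 0.19 and Gabpb1 by 0.14. Among 14 carriers and membrane proteins, with 10 positive and a median of 0.05, Mfn1, of mitochondrial fusion, differed by 0.18, Aifm1 by 0.19 and the uncoupling protein Ucp3 by -0.23 (-0.14 without Usp2-KO pool 1). None of these genes passed the adjusted threshold. Of the carriers 2 were higher and 1 lower at an unadjusted p under 0.05 (backgrounds 5.22% and 3.88%).

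**Figure D5:**
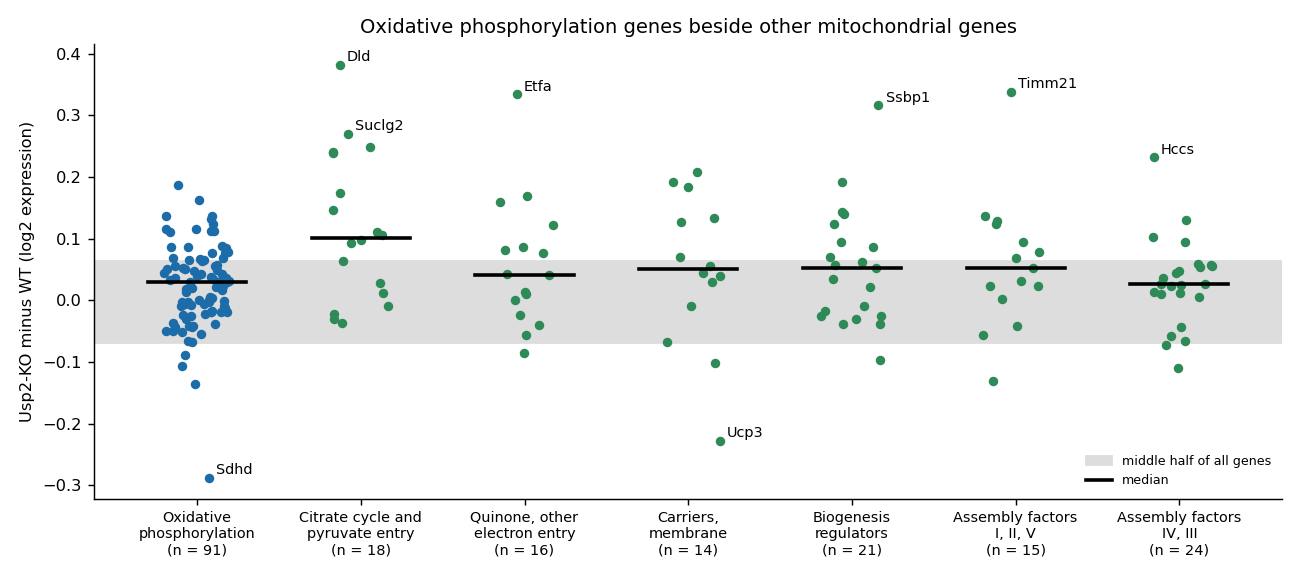
Differences of Usp2-KO minus WT in log2 units for the 91 genes and for 6 lists of other mitochondrial genes, with a point per gene, bars at the medians and a grey band over the interquartile range of all genes. The median of the 91 genes is 0.03 and that of the citrate cycle list 0.101, and Dld at 0.38 is the highest point.

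Cell types rich in mitochondria were read from markers of nephron segments. The 9 proximal tubule markers had 5 positive values and a median of 0.016. The 7 markers of the thick ascending limb had 6 positive values and a median of 0.108, averaging 11.32 and 11.32 in the WT pools and 11.39 and 11.39 in the Usp2-KO pools. The 7 of the distal convoluted and connecting tubule averaged 10.05 and 10.04 in WT and 10.22 and 10.27 in Usp2-KO kidney, and the 8 of the collecting duct 9.38 and 9.35 against 9.50 and 9.48. The distal list had 4 positive and 3 negative values. Its negative markers were Slc12a3 (-0.06), Pvalb (-0.08) and Emx1 (-0.12), each with both Usp2-KO pools below both WT pools. The collecting duct list had 6 positive and 2 negative values. In these lists 3 of 7 and 4 of 8 were higher at an unadjusted p under 0.05 (background 5.22%). None passed the adjusted threshold without the block. With the littermate block the distal markers Trpv5, Slc8a1 and Calb1 passed (adjusted p = 0.000115, 0.000173 and 0.00391 by limma), and with the crossed pairing they did not (0.208, 0.285 and 0.285). Markers of other tissues were mostly negative, where 47.4% of all genes were positive. The pancreas and adrenal lists averaged below the array medians, which lay between 7.44 and 7.46, so low signal limits their reading. All 6 pancreas markers were negative, 2 of them at an unadjusted p under 0.05 (background 3.88%), and they averaged between 6.52 and 6.65 in the pools. Of the 8 markers of blood and immune cells 7 were negative, 3 of them at that threshold, with averages between 7.69 and 7.88, and Alas2, of heme synthesis in red cells, passed with the littermate block alone (adjusted p = 0.0264 by limma). Of the 6 adrenal cortex markers 5 were negative, 1 at that threshold, with averages between 5.50 and 5.60. The part of such shares of cells in the values above was not tested.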

How the data were processed

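The deposited table holds log2 expression per row of the array, which the authors made with RMA, per the submitters' processing notes; the version and the array's genome build are not given in the sources used here. Of 28270 rows, 21780 carried 1 gene symbol, 1617 several and 4873 none in the annotation given. Rows with 1 symbol were used, the row with the highest mean was kept per gene, and 19934 genes resulted. Cox7c of complex IV and Ndufb4 of complex I had only rows with several symbols and were not counted. The 91 members came from 118 rows.

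Genotypes were compared with limma 3.58.1 (R 4.3.3; lmFit and eBayes) over all genes, without a block, with Benjamini-Hochberg adjustment. The series' design text says that littermate pairing was kept between pools, so the pool number as a littermate block was an alternative. Deviations of same-numbered pools correlated at -0.121, so the crossed pairing was added after seeing the data. The code was tested on simulated data. Only 4 arrays limit the precision. The p-values use a spread between pools that limma draws largely from all genes. Of its 8.87 degrees of freedom, 6.87 come from that prior. Each pool averages over mice.

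The members and lists were chosen with earlier results of these data known. Named by rule were members at an unadjusted p under 0.05, the largest positive and negative difference of the same sign in both pairs per complex, the isoform families, the Sdh genes, Cycs and Cyc1, and up to 3 genes of the smallest p per list. Other members (such as Ndufs1, Ndufb2, Ndufs4, Ndufab1, Ndufaf1, Uqcrb and Uqcr11), Timm8b and Gabpa were named after their values were seen. Promoter windows came from a RefSeq table of GRCm38.p6. Alternatives covered the block, the prior, low signal, rows per gene, normalization, the threshold and each pool left out.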

Additional observations from a re-analysis of the deposited data

How the results depend on the processing

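No member passed an adjusted p under 0.05 by limma under any alternative run, the looser threshold of 0.1 and both pairings included. Over all genes the 1 call became 153 with the littermate replicate block, 18 with an intensity trend, 7 with a mean log2 value of at least 6, 7 above the median signal and 2 at an adjusted p under 0.1. It was between 1 and 2 when a pool was left out, and 1 with the crossed pairing, chosen after seeing the data. The block changed the call of no member and of 8 listed genes, Dld among the pathway genes and the markers Trpv5, Slc8a1, Calb1, Adipoq, Retn, Cidec and Alas2, none of which passed with the crossed pairing. Members at an unadjusted p under 0.05 numbered 2, and 4 with an intensity trend (Sdhd, Ndufaf4, Ndufaf1 and Atp5j). Their number was between 0 (without WT pool 2) and 3 when a pool was left out. The median of complex IV was then between -0.034 and 0.016, and that of the Ndufaf genes between 0.032 and 0.118. Leaving out a pool turned the sign of 14 to 20 of the 91 members, values of 0 to 3 decimals included. The cause was not tested. With 2 pools per genotype and a median standard error of 0.07, differences of the size most members had could not be told from 0.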

Other observations

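Sdhd was not the only member with another annotated gene close before its start. Part of another gene, on either strand, lay within 250 bases before the start of 30 of 74 members (40.5%), against 26.7% of 15559 genes. This counts genes that end or run through there as well as those that begin there. Atp5j faces Gabpa, which encodes a factor known to act on genes of oxidative phosphorylation. Gabpa stood at 8.40 and 8.21 in the WT pools and at 8.42 and 8.47 in the Usp2-KO pools (0.14, SE 0.08, adjusted p = 0.646 by limma). Both genes of this pair were thus higher in each Usp2-KO pool than in either WT pool, a placement that 19.8% of all genes had. Sdhd and Timm8b differed in opposite directions. Other pairs also went both ways: Atp5pb and Wdr77 differed by 0.084 and -0.104, Ndufb3 and Fam126b by 0.136 and 0.075. The pair of Atp5j and Gabpa was picked after its values were seen, and shared regulation was not tested.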
